A study of Capra hircus with 20 samples.

Results

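In the hypothalamus libraries of 20 female Jining grey goats, 60 loci without an annotated gene's identifier reached 1 FPKM or more in at least 10 libraries. Whether they overlap annotated genes was not checked here. They carried a serial number with the prefix XLOC_ in the expression table, and they made up 13.0% of the 461 XLOC_ loci among 21071 table rows. FPKM relates the fragments of a locus to the length of its exons and to the mapped fragments of the library. Because the loci were selected by their FPKM, their being above 1 FPKM is the selection and not a result. Of 20610 annotated genes, 13089 (63.5%) met the same rule, and these genes were used for comparison.

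Transcript assembly joins reads that align beside one another into exons and transcripts, so it also recovers RNA from parts of the genome that the annotation leaves empty. Loci found in this way can be long non-coding RNAs, protein-coding genes that the annotation missed, unannotated ends of known genes or transcribed repeats. Long non-coding RNAs of the brain are known for low levels and for expression in particular cell types or regions. Which of these classes each of the 60 loci belongs to, its sequence, its exons and its coordinates were not analysed here, and the loci are therefore named by number.

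The goats were 1 day (D1), 60 days (M2), 120 days (M4) or 180 days (M6) old, with 5 goats and 5 libraries in each stage. They were healthy animals of 1 breed and farm, kept under the same feeding and given no treatment by the labels, and each library came from the hypothalamic tissue of a single goat after removal of ribosomal RNA. The stages were compared to follow hypothalamic RNA from birth to sexual maturity. Age is the factor that differs between the groups by design. The study reports that the goats were slaughtered on the same day, so date of birth differs with age and cannot be told apart from it. Fewer cells of a type and less RNA per cell cannot be told apart in whole tissue.

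Read counts were not given with the FPKM, so the depth behind each value is unknown and no counting interval could be set. The tissue label was checked with 14 genes of hypothalamic neurons, whose summed FPKM ran from 2.02 to 920 across libraries. AVP, the vasopressin gene, reached 1 FPKM in 13 of 20 libraries and HCRT, the orexin gene, in 6, whereas KISS1 and GHRH reached it in 0. The summed FPKM of 4 myelin genes ran from 90.1 to 2718, and that of 5 genes of cortex and striatum from 3.76 to 378 with the highest value in D1 replicate 4. M2 replicate 1, M2 replicate 3 and M6 replicate 3 had the lowest mapping rates, and several counts and fold changes are also given without them. Other values include these libraries and were not checked for them one by one.

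Most of the 60 loci were of low level. The mean FPKM over 20 libraries had a median of 2.31 (quartiles 1.53 and 4.85), beside 7.81 for the annotated genes that met the rule, and 45 loci had a mean under 5 FPKM. Of the 60 loci, 26 were at 1 FPKM or more in all 20 libraries, 16 in only 10 to 12 libraries, and XLOC_088426 and XLOC_008158 were listed at 0 in some library. The other 401 XLOC_ loci had a median mean of 0.419 FPKM. Just inside the rule stood XLOC_099342, XLOC_020347 and XLOC_074362, each with 1.01 FPKM in the lowest of the 10 libraries that admitted it. Just outside it stood XLOC_074614, XLOC_055661 and XLOC_001850 with 9 libraries at 1 FPKM or more and 0.995, 0.993 and 0.9798 FPKM in the next.

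A pair of loci stood far above the rest. XLOC_038835 had a mean of 1844 FPKM, and only 6 annotated genes had a higher mean. Its level was 1058, 4331, 2131, 1291 and 1360 FPKM in D1 replicates 1 to 5, and 4124, 1429, 871, 2257 and 2206 FPKM in M2 replicates 1 to 5. At M4 it was 1429, 1408, 1600, 1229 and 2058 FPKM, and at M6 it was 1704, 2034, 1779, 1469 and 1103 FPKM. Its groups overlapped in all 6 comparisons between stages, and its highest values were in D1 replicate 2 and M2 replicate 1. In the row order of the table, which follows the genome, the locus sits on chromosome 8 between KLF4, a transcription factor gene, and IKBKAP, which encodes a scaffold of the Elongator complex. Neither neighbour varied with it, with Spearman's rho of -0.07 for KLF4 and -0.19 for IKBKAP over the 20 libraries.

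XLOC_014781 had the second highest mean, 406 FPKM, and 70 annotated genes had a higher mean. It was at 1761 FPKM in D1 replicate 3, 2517 FPKM in M2 replicate 1 and 1446 FPKM in M4 replicate 2. In the other 17 libraries it lay between 76.7 and 234 FPKM. The gap between these 17 and the 3 high libraries was 2.63 on the log2 scale, with 1 high library each at D1, M2 and M4 and 0 at M6. Its rows neighbour CELSR2, a cadherin gene, and PSMA5, a proteasome subunit gene, on chromosome 3, and its level followed that of CELSR2 (rho 0.74) more closely than that of PSMA5 (rho 0.16). The annotated gene with the most similar pattern was COL25A1, a membrane collagen gene (rho 0.83).

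The 60 loci together held between 0.335% and 2.34% of the summed FPKM of a library. From D1 to M6 the mean share was 0.805% ± 0.487, 0.963% ± 0.794, 0.707% ± 0.187 and 0.589% ± 0.112 (SD, n = 5 each), and the groups overlapped. The median share over 20 libraries was much smaller without XLOC_038835, at 0.116%.

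**Figure D1:**
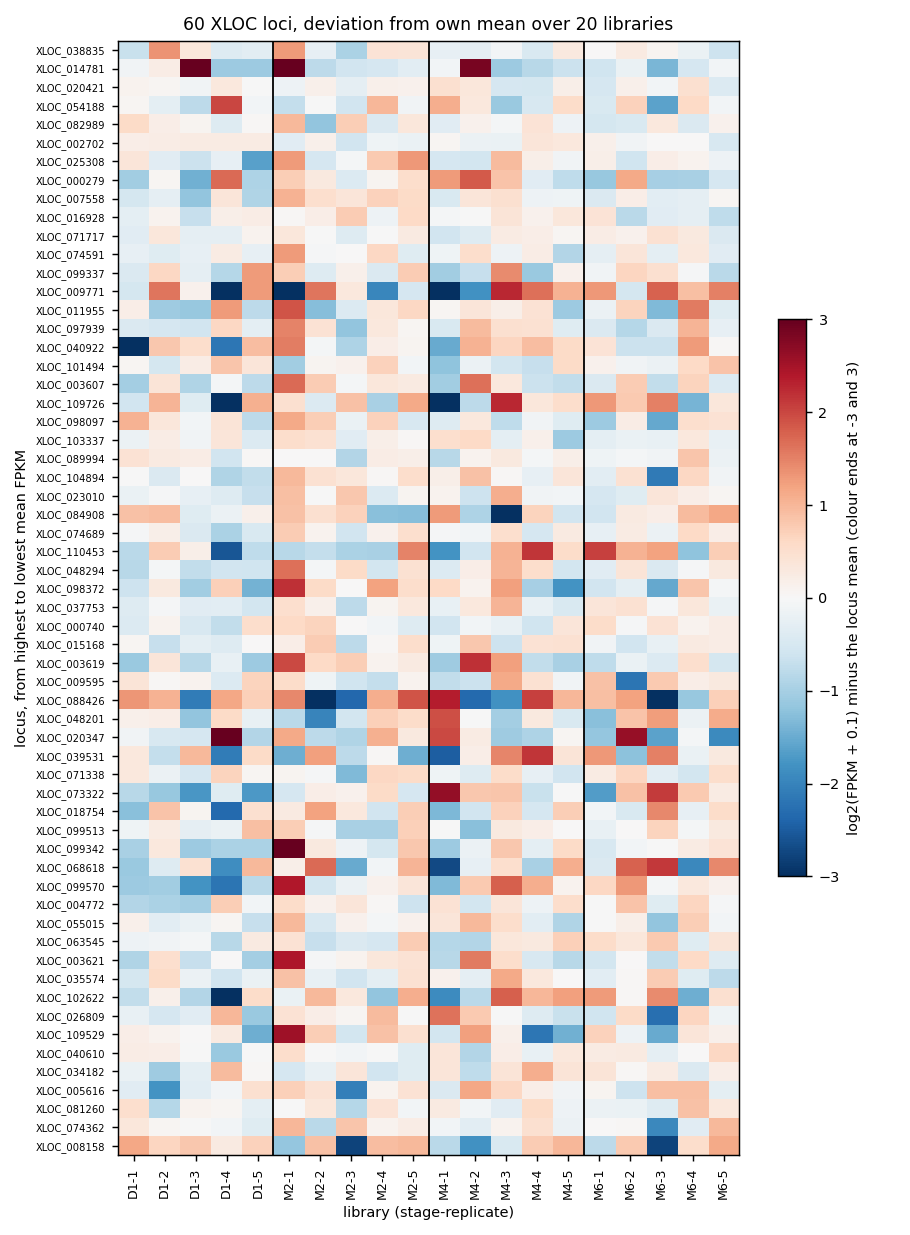
Level of the 60 XLOC_ loci in 20 libraries as the deviation of log2(FPKM + 0.1) from the mean of each locus, with libraries ordered by stage (black lines) and loci from highest to lowest mean FPKM. Red is above and blue below the mean of the locus. The column of M2 replicate 1 holds the highest value of 19 of the 60 loci, and many rows differ more between goats of a stage than between stages.

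Some loci were of even level. XLOC_020421, with the third highest mean at 16.2 FPKM, lay between 11.02 and 22.3 FPKM in all 20 libraries, and its stage means were 16.8 ± 1.85, 15.98 ± 2.11, 16.4 ± 5.13 and 15.5 ± 4.44 FPKM from D1 to M6 (SD, n = 5 each). The difference between its highest and lowest stage was 0.15 on the log2 scale, the smallest of the 60. XLOC_002702 had the smallest spread within a stage (SD 0.22 on the log2 scale), and XLOC_071717 the next smallest (SD 0.32), with values between 4.46 and 9.28 FPKM. Other loci among the 6 of highest mean varied more. XLOC_054188, at a mean of 14.1 FPKM, lay between 3.83 and 47.8 FPKM, with a larger SD within a stage (0.90) than 90.7% of annotated genes of like level. XLOC_082989, at a mean of 11.3 FPKM, lay between 4.68 FPKM in M2 replicate 2 and 21.0 FPKM in M2 replicate 1.

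Levels of the loci differed more between goats of 1 stage than levels of annotated genes did. On the log2(FPKM + 0.1) scale, the median within-stage SD of the 60 loci was 0.706. Annotated genes of like level were taken from the same class of mean FPKM (under 2, 2 to 5, 5 to 20, 20 to 100, or 100 and more), and the median of their class medians was 0.574. Of the 60 loci, 36 were above the median of annotated genes in their class, 26 above the upper quartile and 8 below the lower quartile. The difference was present in each class with loci, at 0.858 against 0.693 for the 24 loci under 2 FPKM, 0.701 against 0.574 for the 21 loci of 2 to 5 FPKM and 0.535 against 0.430 for the 13 loci of 5 to 20 FPKM. Annotated genes with a LOC number as their symbol stood at 0.740, 0.648 and 0.507 there, between the loci and all annotated genes. The classes match level only broadly. In these classes the median of the mean FPKM was 1.29, 2.82 and 8.76 for the loci, against 1.56, 3.22 and 9.67 for annotated genes. The part of this remaining difference in level in the spread was not tested. The count above the upper quartile lay between 20 and 28 when any 1 library or the 3 libraries of lowest mapping rate were left out, or when the scale was altered. These are descriptions of selected loci, and no test was made of them.

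The same held for the range over libraries. With 0.1 FPKM added to each value, the highest value was at least 10 times the lowest for 23 of the 60 loci (38.3%), against 17.0% of the annotated genes that met the rule, and the shares of annotated genes in the same classes would have given 14.8 loci. By class, the share was 54.2% of loci under 2 FPKM, 33.3% at 2 to 5 FPKM and 15.4% at 5 to 20 FPKM. For annotated genes with a LOC number it was 42.2%, 29.3% and 17.5%. The spread between stages was closer to that of annotated genes. The difference between the highest and lowest stage mean had a median of 0.660 on the log2 scale, beside 0.613 for annotated genes of like level. By this measure, 31 of the 60 loci were above the median of their class and 20 above its upper quartile. For 36 of the 60 loci, the difference between the highest and lowest stage mean was smaller than their own SD within a stage.

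**Figure D2:**
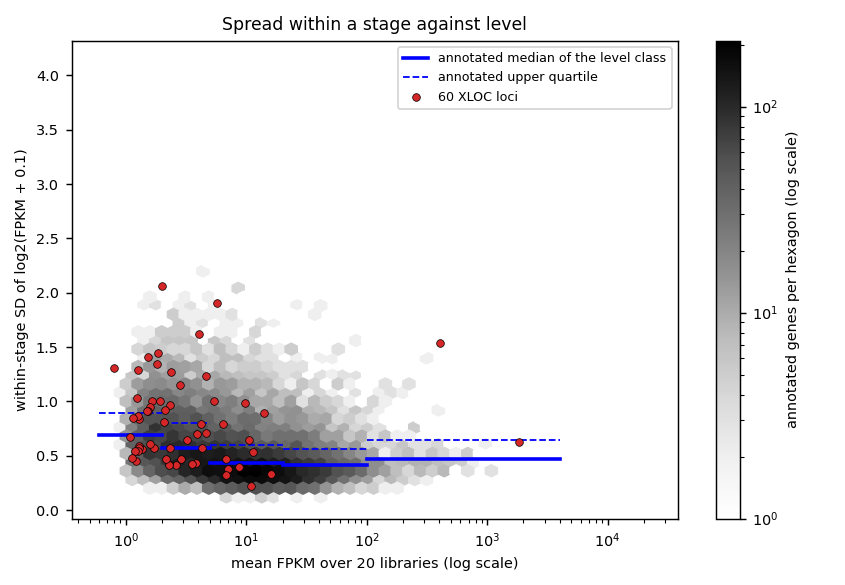
Within-stage SD of log2(FPKM + 0.1) against mean FPKM (log scale) for the 60 XLOC_ loci (red points) over the density of the 13089 annotated genes that met the same rule (grey hexagons, count on a log scale). Blue lines give the median and the upper quartile of annotated genes in each class of level. Of the 60 red points, 36 are above the median line of their class and 26 above the upper quartile line.

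XLOC_088426 had the largest spread, with an SD of 2.06 on the log2 scale within a stage. It was at 2.84, 2.34, 0.175, 2.54 and 1.85 FPKM in D1 replicates 1 to 5, and at 3.12, 0, 0.133, 2.41 and 4.27 FPKM in M2 replicates 1 to 5. At M4 it was 5.99, 0.133, 0.234, 4.80 and 2.26 FPKM, and at M6 it was 2.09, 2.63, 0, 0.437 and 1.85 FPKM. The libraries thus fell on either side of an empty interval from 0.437 to 1.85 FPKM, with 7 below and 13 above it. Each stage had libraries on both sides, with 4, 3, 3 and 3 high libraries from D1 to M6. A gap of this size with at least 3 libraries on each side was rare, since 99.8% of annotated genes in its class had a smaller gap. Over all 60 loci, 2 (XLOC_014781 and XLOC_088426) had a gap of at least 1.5 on the log2 scale, as had 67 (0.512%) of the annotated genes that met the rule. The row neighbour of XLOC_088426 on chromosome 23 is RXRB, a retinoid X receptor gene, whose rho with it was -0.50.

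XLOC_009771 and XLOC_109726 had the widest ranges of the 60 loci once 0.1 FPKM was added to each value, at 77.0-fold and 80.8-fold. XLOC_009771 was at 2.27, 10.3, 3.64, 0.310 and 8.13 FPKM at D1, and at 0.331, 10.3, 4.12, 0.775 and 2.30 FPKM at M2. It was at 0.114, 0.874, 16.4, 10.6 and 6.89 FPKM at M4, and at 8.35, 2.26, 11.5, 6.29 and 9.56 FPKM at M6. Low values below 1 FPKM were in D1, M2 and M4 libraries, and the stages overlapped. XLOC_109726 was likewise lowest in D1 replicate 4 and M4 replicate 1 and highest in M4 replicate 3.

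XLOC_020347 showed the opposite order of libraries. It was highest in D1 replicate 4 (9.34 FPKM), M6 replicate 2 (7.16 FPKM) and M4 replicate 1 (4.61 FPKM), and lay at 2.50 FPKM or less in the other 17 libraries. Its rho with XLOC_009771 was -0.85, the most opposite of the 1770 pairs of loci. XLOC_054188 was highest in the same D1 library, at 47.8 FPKM, against 6.83 to 12.4 FPKM in the other D1 libraries. D1 replicate 4 also had the highest summed FPKM of cortex and striatum genes, and the part of these genes in the levels of the loci was not tested.

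**Figure D3:**
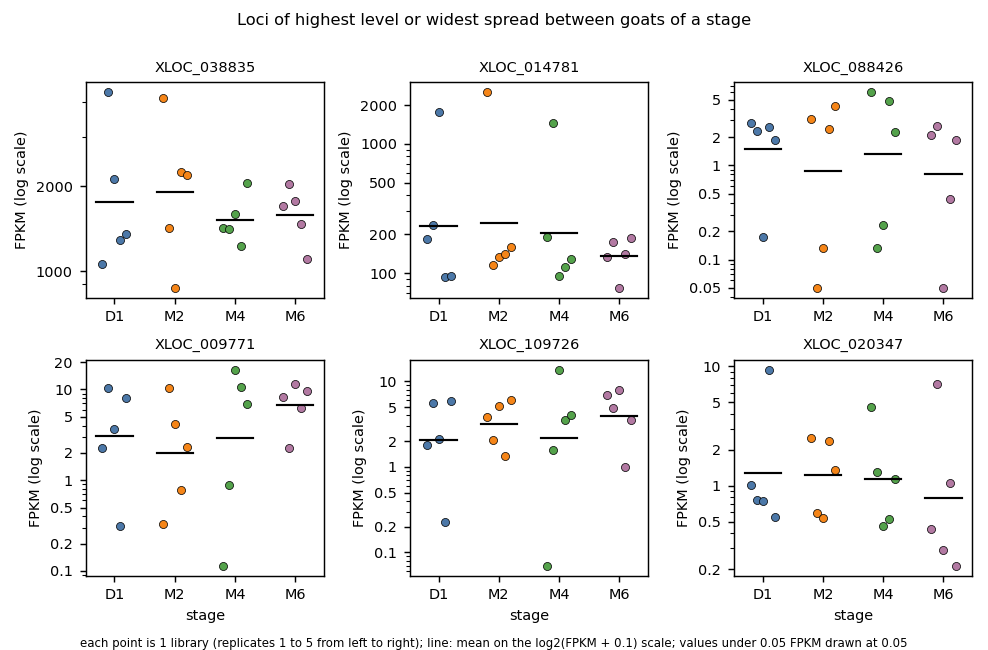
FPKM (log scale) of 6 loci of high level or wide spread in each library, by stage, with lines at the mean on the log2(FPKM + 0.1) scale and values under 0.05 FPKM drawn at 0.05. XLOC_014781 has 3 libraries at 1446 FPKM or more and 17 at 234 FPKM or less, and XLOC_088426 has no library between 0.437 and 1.85 FPKM.

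XLOC_026809 varied with the content of myelin genes, taken as the mean log2(FPKM + 0.1) of MOBP, MAG, CNP and MOG. These genes are expressed in oligodendrocytes, the cells that wrap axons. The level of XLOC_026809 had a rho of -0.90 with this myelin level over 20 libraries. It was highest in M4 replicate 1, at 3.54 FPKM, where the myelin level was lowest, at 3.84 on the log2 scale. It was lowest in M6 replicate 3, at 0.143 FPKM, where the myelin level was 8.57. The annotated gene with the most similar pattern was PSD, which encodes an exchange factor for ARF GTPases (rho 0.92), and the most opposite was PLEKHB1 (rho -0.94). It was the 1 locus of 60 (1.67%) with a rho of -0.7 or lower, beside 1.38% of annotated genes that met the rule, a share near the background. XLOC_011955, XLOC_000279, XLOC_074591 and XLOC_098372 followed at -0.69, -0.69, -0.69 and -0.67. At the other end, 0 of the 60 loci had a rho of 0.7 or more, as did 3.22% of annotated genes, and the highest were XLOC_009771 at 0.63, XLOC_039531 at 0.62 and XLOC_109726 at 0.62. XLOC_009771 was below 1 FPKM in 5 libraries, which were among the 6 with the lowest myelin level, and was at 6.29 FPKM in the other one, M6 replicate 4. XLOC_026809, XLOC_039531, XLOC_011955, XLOC_074591 and XLOC_098372 were picked here for these values. The points of each correlation share libraries and scaling, and the part of myelin content in the stage comparisons was not tested.

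**Figure D4:**
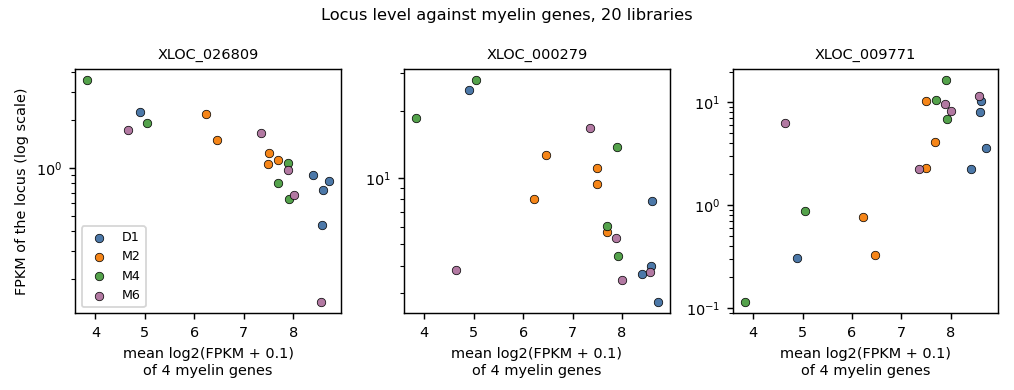
FPKM of 3 XLOC_ loci (log scale) against the mean log2(FPKM + 0.1) of 4 myelin genes in 20 libraries coloured by stage. XLOC_026809 is lower where the myelin level is higher (rho -0.90), XLOC_000279 less closely so (rho -0.69), and XLOC_009771 is higher there (rho 0.63).

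None of the 60 loci was called as different between stages at the study's thresholds. The study applied them to read counts of lncRNAs with another test, so its calls and those here are not alike in test or unit. In limma on log2(FPKM + 0.1), with an adjusted p under 0.05 over 16771 genes and a difference of 1 or more on the log2 scale in either direction, the call count was 0 of 60 in each of M2 vs. D1, M4 vs. M2, M6 vs. M4, M4 vs. D1, M6 vs. D1 and M6 vs. M2. The same test called few genes in the whole table, with 0%, 0%, 0%, 0.0537%, 0.00596% and 0% of genes called in these comparisons. The F test over the 4 stages gave 0 of 60 loci at an adjusted p under 0.05, beside 0.00596% of all genes. At an unadjusted p under 0.05, it gave 3 of the 60 loci (5.00%), beside 10.4% of all genes, and 5 without M2 replicate 2, M2 replicate 4 or M4 replicate 2. The number was 10 with libraries weighted by quality and 0 with mapping rate and replicate number in the fit together.

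The comparison with the most differences was M2 vs. D1. At an unadjusted p under 0.05, 10 of the 60 loci (16.7%) differed, close to the 15.6% of all genes, and 9 of the 10 were higher at M2. By class of level, it was 2 of 24 loci under 2 FPKM, 5 of 21 at 2 to 5 FPKM and 3 of 13 at 5 to 20 FPKM. Annotated genes of these classes that met the rule stood at 8.52%, 11.3% and 16.2%. Among all genes tested, 6.25% were higher and 9.35% lower at M2 by this criterion. With M2 replicate 1 left out, 4 loci had an unadjusted p under 0.05, and the same number was found without the 3 libraries of lowest mapping rate and with mapping rate in the fit. Without D1 replicate 5 the number was 6, without M2 replicate 3 it was 15, with libraries weighted by quality it was 17, and with mapping rate and replicate number in the fit together it was 2. In the other comparisons the number was 2 for M4 vs. M2, 0 for M6 vs. M4, 2 for M4 vs. D1, 2 for M6 vs. D1 and 3 for M6 vs. M2. With all libraries, those shares were below the 8.68%, 6.87%, 8.71%, 7.41% and 6.14% of all genes. These small counts moved with single libraries. For M4 vs. M2 the number was 6 without M4 replicate 2, 4 without M4 replicate 3, 1 without M2 replicate 4 or M4 replicate 1, and 0 without M2 replicate 1, M4 replicate 4 or M4 replicate 5. For M4 vs. D1 it was 5 without D1 replicate 2, D1 replicate 4, M4 replicate 1 or M4 replicate 5. For M6 vs. D1 it was 4 without D1 replicate 4 or M6 replicate 4 and 1 without M6 replicate 3, and for M6 vs. M2 it was 5 without M2 replicate 2 or M6 replicate 4 and 1 without M6 replicate 5. For M6 vs. M4 it was 2 without M4 replicate 1 or M4 replicate 5, and at most 1 without any other library.

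In direction, the loci differed from annotated genes of all levels, which were not matched to the loci for level. In M2 vs. D1, the log2 fold change was above 0 for 43 of the 60 loci (71.7%), against 44.8% of all genes and 40.3% of annotated genes that met the rule. The median log2 fold change of the loci was 0.34, against -0.12 for those annotated genes. The count was 40 without M2 replicate 1, 47 without the 3 libraries of lowest mapping rate and 33 with mapping rate and replicate number in the fit together. Without M2 replicate 1 the median was 0.14. It was above 0 for 38 loci in M4 vs. D1 (43.7% of all genes) and for 42 loci in M6 vs. D1 (44.9% of all genes), comparisons that share the D1 libraries with the preceding one. Between later stages, fewer loci than not were above 0 in the main fit. The count was 22 (36.7%) in M4 vs. M2 against 48.3% of all genes. It was 28 (46.7%) in M6 vs. M4 against 53.9%, and 26 (43.3%) in M6 vs. M2 against 51.9%. Over the alternatives these counts ran from 15 to 32, from 21 to 33 and from 17 to 32. Whether fewer or more loci were above 0 between later stages thus changed with the processing. D1 had the lowest stage mean for 31 of the 60 loci, as it had for 21.5% of the annotated genes, and M2 the highest for 25, as it had for 22.7%. Of the 379 other XLOC_ loci tested, 327 (86.3%) were above 0 in M2 vs. D1, with a median of 0.86, and without M2 replicate 1 the share was 76.8% and the median 0.48. Among annotated genes that met the rule, those with limma's unadjusted p under 0.05 in M2 vs. D1 differed in direction by level. Under 2 FPKM, 8.52% had such a p and 7.02% were also higher at M2. At 2 to 5 FPKM the shares were 11.3% and 7.87%, and at 5 to 20 FPKM 16.2% and 5.97%. They were 30.2% and 3.04% at 20 to 100 FPKM and 25.1% and 1.38% at 100 FPKM or more. Under 5 FPKM, where 45 of the 60 loci lay, most annotated genes with such a p were thus higher at M2. The direction of all annotated genes in each class was not counted, so a contrast with annotated genes of like level was not tested.

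XLOC_007558 had the smallest p of the 60 loci. It was at 5.64, 6.71, 3.54, 10.5 and 4.35 FPKM at D1 and at 16.8, 11.5, 10.6, 13.2 and 12.2 FPKM at M2. At M4 it was 5.94, 10.6, 11.4, 7.28 and 7.48 FPKM, and at M6 it was 6.07, 9.34, 6.53, 6.76 and 8.52 FPKM. All 5 M2 libraries were above all 5 D1 libraries and above all 5 M6 libraries, and the M4 libraries overlapped with the other 3 stages. Between M2 and D1 the log2 fold change was 1.14 (SE 0.26, 95% interval 0.60 to 1.67), with limma's unadjusted p of 0.00025 and an adjusted p of 0.116. In M6 vs. M2 it was -0.78 (SE 0.26), with an adjusted p of 0.746. The adjusted p in M2 vs. D1 was 0.0362 without D1 replicate 4, the D1 library with its highest value, 0.374 without M2 replicate 1 and 0.0108 with libraries weighted by quality, and it ranged from 0.0108 to 0.920 over all alternatives. Its row neighbours on chromosome 2 are B3GALT1, a galactosyltransferase gene, and LOC102179054, with rho of 0.09 and -0.34.

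XLOC_099570 had its lowest stage mean at D1. Its D1 values were 0.456, 0.474, 0.241, 0.160 and 0.568 FPKM, and its M2 values were 6.15, 0.70, 0.944, 1.19 and 1.41 FPKM. At M4 it was 0.375, 1.92, 3.99, 2.42 and 1.17 FPKM, and at M6 it was 1.73, 2.78, 1.03, 1.36 and 1.19 FPKM. The D1 libraries did not overlap with those of M2 or M6, and M4 replicate 1 alone lay within the D1 range. The log2 fold change was 1.81 (SE 0.55) in M2 vs. D1, 1.87 (SE 0.55) in M4 vs. D1 and 1.84 (SE 0.55) in M6 vs. D1, with limma's adjusted p of 0.164, 0.296 and 0.446. Without M2 replicate 1 the value in M2 vs. D1 was 1.32. Over all alternatives this value ranged from 0.116 to 2.06, and its adjusted p from 0.0427 to 0.992. The difference of M4 from D1 ranged from 0.69 to 2.33, and that of M6 from D1 from 0.67 to 2.11. Its most similar annotated gene was GRM7, a metabotropic glutamate receptor gene (rho 0.91), and its row neighbours on chromosome 28, CCSAP and RAB4A, had rho values of 0.16 and 0.06.

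XLOC_073322 was likewise low at D1. Its D1 values were 0.602, 0.461, 0.269, 0.872 and 0.276 FPKM, and its M2 values were 0.773, 1.33, 1.25, 1.74 and 0.779 FPKM. At M4 it reached 7.61 FPKM in replicate 1 and lay between 0.681 and 2.11 FPKM in the others, and at M6 it ranged from 0.289 to 5.24 FPKM. The log2 fold change was 1.88 (SE 0.60) in M4 vs. D1 and 1.63 (SE 0.60) in M6 vs. D1, with limma's adjusted p of 0.345 and 0.599, and the groups overlapped.

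XLOC_104894 was the third locus with M2 above D1 in all libraries. It was at 2.89, 2.15, 2.95, 1.51 and 1.70 FPKM at D1 and at 5.82, 4.03, 3.74, 3.02 and 4.26 FPKM at M2. The lowest M2 value and the highest D1 value differed by little, and the log2 fold change was 0.89 (SE 0.40), with limma's adjusted p of 0.289. This locus was picked here because its groups did not overlap. In row order it is listed on the X chromosome between LOC102173723 and SLC9A7, a sodium and proton exchanger gene. These neighbours lie 1.97e+06 bp apart.

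XLOC_002702 was the one locus with an unadjusted p under 0.05 and a lower level at M2 than at D1. Its D1 values were nearly equal, at 12.5, 12.7, 12.8, 12.9 and 12.9 FPKM. Its M2 values were 8.48, 12.1, 7.20, 9.82 and 9.34 FPKM, all below the D1 range, and its M6 values of 12.05, 10.03, 10.98, 10.997 and 7.76 FPKM were also below it. At M4 it was 11.3, 9.52, 9.43, 13.9 and 13.4 FPKM, which overlapped with D1. The log2 fold change was -0.46 (SE 0.17) in M2 vs. D1 and -0.31 (SE 0.17) in M6 vs. D1, with limma's adjusted p of 0.228 and 0.721. Its rows neighbour N6AMT1, a methyltransferase gene, and LTN1, a ubiquitin ligase gene of ribosome quality control, on chromosome 1, and its level followed LTN1 (rho 0.65).

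**Figure D5:**
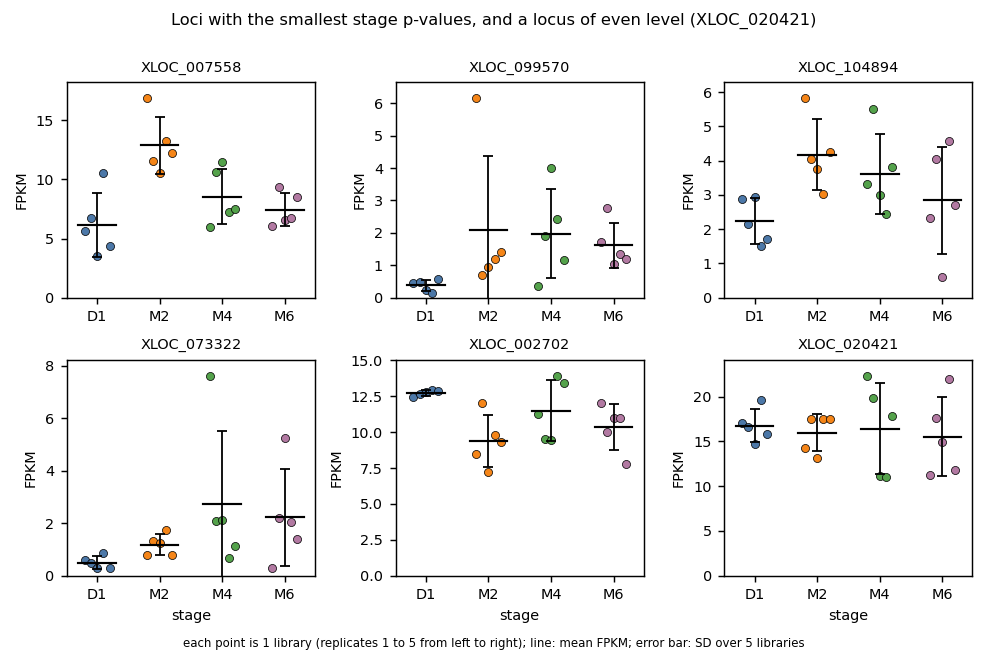
FPKM of 6 loci in each library, by stage, with a line at the mean and an error bar of 1 SD over 5 libraries. XLOC_007558, XLOC_099570 and XLOC_104894 have all M2 values above all D1 values, XLOC_002702 has all M2 values below them, XLOC_073322 overlaps, and XLOC_020421 has similar means in all 4 stages.

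Groups that did not overlap were about as frequent among the loci as among all genes. In M2 vs. D1 the count was 4 of 60 (6.67%) against 3.82% of all genes, in M6 vs. D1 it was 2 (3.33%) against 2.84%, and in M6 vs. M2 it was 1 (1.67%) against 0.757%. It was 0 in the other comparisons, against 1.09% of all genes in M4 vs. M2, 1.93% in M4 vs. D1 and 0.775% in M6 vs. M4.

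In M4 vs. M2, XLOC_007558 had the smallest p of the 60 loci, with a log2 fold change of -0.61 (SE 0.26) and limma's adjusted p of 0.545, and XLOC_002702 was 0.29 (SE 0.17) higher on that scale. XLOC_109529 had a log2 fold change of -1.37 (SE 0.62) in M4 vs. M2, with limma's adjusted p of 0.563, and its highest value was 5.87 FPKM in M2 replicate 1. Its log2 fold change ranged from -1.82 to -0.71 over all alternatives. In M6 vs. M4, XLOC_101494 was 0.67 (SE 0.35) and XLOC_000740 was 0.47 (SE 0.29) higher on the log2 scale, while XLOC_016928 and XLOC_000279 were lower, at -0.51 and -1.07. In M6 vs. M2, XLOC_009771 and XLOC_110453 had the smallest p-values among loci above 0, at 1.70 and 1.16, and each had libraries of both stages within the range of the other. XLOC_034182 was 0.55 higher in M4 vs. M2, and XLOC_084908 had a value of -0.88 in M4 vs. D1, as differences on the log2 scale. XLOC_008158 was lower at M2 and at M6 than at D1, at -0.95 and -0.94, and was listed at 0 in M2 replicate 3 and M6 replicate 3, both among the 3 libraries of lowest mapping rate. Without these 3 libraries its value in M2 vs. D1 was 0.21. The adjusted p of these loci was at least 0.545 in every one of these comparisons.

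M2 replicate 1 was the library in which the loci stood out. It held the highest value of 19 of the 60 loci (31.7%), as it did for 12.5% of the annotated genes that met the rule, and the loci lay a median of 0.72 above their own mean there on the log2 scale. The annotated genes had a median deviation of -0.08 there. XLOC_099342 was at 11.3 FPKM in this library and between 0.70 and 1.94 FPKM in the other 4 M2 libraries, so that 36.6% of its summed FPKM over 20 libraries came from this goat. M4 replicate 3 held the highest value of 8 loci (13.3%), as it did for 5.73% of those annotated genes. M2 replicate 3 held the lowest value of 10 loci, and the share of annotated genes lowest there was not counted. M2 replicate 1 and M2 replicate 3 were also among the libraries of lowest mapping rate, whose part in these levels was not tested.

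The loci showed few shared patterns among themselves. The median rho over the 1770 pairs was 0.08, and 5 pairs were at 0.8 or more. Among these were all 3 pairs formed by XLOC_003607, XLOC_003619 and XLOC_003621, which are listed between LSAMP and IGSF11 on chromosome 1, both genes of cell adhesion molecules of the immunoglobulin family. XLOC_003619 and XLOC_003621 had a rho of 0.92, XLOC_003607 and XLOC_003619 of 0.88, and XLOC_003607 and XLOC_003621 of 0.87. XLOC_003607 was at 11.7 FPKM in M2 replicate 1 and 11.4 FPKM in M4 replicate 2, and at 6.12 FPKM or less in the other libraries. XLOC_003619 was highest in the same libraries, at 6.69 and 7.79 FPKM, as was XLOC_003621, at 5.85 and 3.17 FPKM. Their rho with LSAMP was 0.58, 0.60 and 0.70, and with IGSF11 it was -0.03, 0.03 and -0.05, so they varied together more than with either neighbour. Whether the 3 loci are pieces of 1 transcript was not tested. The other close pairs, XLOC_102622 with XLOC_109726 (rho 0.85) and XLOC_020421 with XLOC_054188 (rho 0.82), were listed in different parts of the genome. These pairs, and the trio, were picked here for their rho.

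Row neighbours could be read because the table follows the genome, with 99.9% of 19496 annotated genes on the chromosome of the genes listed beside them and 93.0% within 1 Mb of their span. For 58 of the 60 loci, both annotated neighbours were on 1 chromosome. Row order gives no coordinates and does not tell whether a locus lies inside its neighbour. The better rho of a locus with its neighbours had a median of 0.220, beside 0.268 for annotated genes. It was 0.7 or more for 3 loci (5.00%), as for 5.02% of annotated genes. These 3 were XLOC_000279 with ROBO2, an axon guidance receptor gene (rho 0.77), XLOC_054188 with TSC22D1, a gene of a transcriptional regulator (rho 0.75), and XLOC_014781 with CELSR2.

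Each locus had annotated genes of similar pattern elsewhere in the genome. The highest rho with any of the 13089 annotated genes had a median of 0.839 over the 60 loci, beside 0.847 for annotated genes of like level, and the largest of so many values is high for any gene. Among the named loci, XLOC_020347 was most similar to RRAGD, a Rag GTPase gene (rho 0.93), XLOC_054188 to RITA1 (rho 0.93), XLOC_109726 to DOCK10, an exchange factor gene (rho 0.91), and XLOC_099342 to GBF1, a Golgi exchange factor gene (rho 0.91). XLOC_000279 was most similar to PLCB1, a phospholipase C gene (rho 0.91), XLOC_101494 to RUVBL2, a gene of a chromatin remodelling ATPase (rho 0.90), and XLOC_009771 to PRR13 (rho 0.89). XLOC_088426 was most similar to SLC1A2, the gene of an astrocyte glutamate transporter (rho 0.81), XLOC_038835 to ST7L (rho 0.78), and XLOC_082989 to TNR, which encodes an extracellular matrix protein of the brain (rho 0.76).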

How the data were processed

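Total RNA of 20 hypothalami was depleted of ribosomal RNA and sequenced as strand-specific paired libraries. Per the study's methods, the authors aligned trimmed reads to the goat genome ARS1.2 with HISAT2 (2.0.5), assembled transcripts with StringTie (1.3.3b) and normalised gene levels. The deposited table gives FPKM for 21071 genes and loci in 20 libraries. FPKM carry no read counts, and the depth per library cannot be read from them. Names came from the RefSeq table of the same assembly.

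From these values, limma (3.58.1, R 4.3.3) was fitted to log2(FPKM + 0.1) with 4 stages as groups and a variance trend, for genes at 0.1 FPKM or more in at least 5 libraries (16771 genes, with all 60 loci among them). Fold changes are on this scale and understate those of low loci. P-values were two-sided and Benjamini-Hochberg adjusted over all genes. The fit was tested on simulated data. The within-stage SD pooled the 4 stages. Correlations are Spearman's rho over 20 libraries.

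The loci, gene lists and naming rule were chosen with earlier results of these data known. Loci were named when called, when among the 2 smallest p-values in either direction of a comparison, the 6 highest means, the 4 largest or 3 smallest spreads, the 3 nearest either side of the threshold, or when listed by the study (XLOC_082989 and XLOC_099342). Other loci are marked where named. Alternatives covered the pseudocount, filter, scaling, variance model, library weights, replicate number, mapping rate and each library left out. A listed myelin gene and a gene of similar pattern are not reported here.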

Additional observations from a re-analysis of the deposited data

Results flagged for a closer look

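In a group of 5 libraries, chance alone flags about 1 in 20 groups with a library that stands apart from the others, and 8 of 100 groups of the named loci were flagged, as were 20 of 240 groups of all 60 loci. The values were compared on the log2(FPKM + 0.1) scale by the gap to the nearest library as a share of the whole range of the stage.

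XLOC_014781 was flagged in both M2 replicate 1, at 2517 FPKM, and M4 replicate 2, at 1446 FPKM, each the highest of its stage. XLOC_110453 stood apart in M2 replicate 5, at 4.77 FPKM, and XLOC_020347 in D1 replicate 4, at 9.34 FPKM. XLOC_000279 was highest in M6 replicate 2, at 16.8 FPKM, and XLOC_099342 was highest in D1 replicate 2, at 1.35 FPKM. A low library was flagged for XLOC_088426 in D1 replicate 3, at 0.175 FPKM, and for XLOC_109529 in D1 replicate 5, at 0.272 FPKM. The share of summed FPKM held by the 60 loci was flagged in M2 replicate 1, at 2.34%.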

How the results depend on the processing

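The count of loci called was 0 in all 6 comparisons and in the F test, and most alternatives gave the same count. With libraries weighted by quality, 2 loci (XLOC_007558 and XLOC_099570) were called in M2 vs. D1, 1 each for M4 and M6 against D1, and 2 by the F test, in a fit that called 148, 65, 95 and 170 of all genes there. Leaving out 1 library at a time gave 0 to 1 loci in M2 vs. D1, where the 1 was XLOC_007558 without D1 replicate 4. Of 790 refitted log2 fold changes of the named loci, 4 changed sign, all of XLOC_008158. Its M2 vs. D1 value of -0.95 was 0.78 with mapping rate in the fit, 0.070 with mapping rate and replicate block together and 0.21 without the 3 libraries of lowest mapping rate, and its M6 vs. D1 value of -0.94 was 0.26 with mapping rate. The cause was not tested. Values that kept their sign could still shrink, and that of XLOC_099570 in M2 vs. D1, 1.81, was 0.116 at its lowest. The median spread of 0.706 was 0.496 with a pseudocount of 1 FPKM, 0.502 as a median absolute deviation and 0.622 without the 3 libraries of lowest mapping rate, beside 0.417, 0.409 and 0.519 for annotated genes of like level, and it ranged from 0.654 to 0.727 with 1 library left out. The rule admitted 165 loci at 0.5 FPKM, 33 at 2 FPKM, 125 with 1 FPKM in at least 5 libraries and 26 with 1 FPKM in all 20. The median share of summed FPKM was 0.615% with and 0.116% without the locus of highest mean. The count of loci above 0 in M6 vs. M2, 26, was 17 in 2 alternatives, without M2 replicate 3 and with the library weights. In the other alternatives it lay between 24 and 32. The planned fits all ran.

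Replicate numbers 1 to 5 recur in each stage but belong to different goats. Libraries of the same number had a median correlation of deviations of -0.01 (-0.25 to 0.43 over 30 pairs), beside 0.0044 for other pairs, and 3 of 20 libraries were closest to their own number. With the replicate block the number of loci called was 0 in all 6 comparisons and in the F test, and 43 loci were above 0 in M2 vs. D1.

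With 5 goats a stage and no read counts, small differences of loci near 1 FPKM could not be told from counting error.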
